A study of Mus musculus with 12 samples.

Results

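Sphingolipid metabolism was described here through 42 genes that encode the enzymes of ceramide, sphingomyelin, glycosphingolipid and sulfatide synthesis and breakdown, Fa2h among them, in the proximal colon of mice with and without the long noncoding RNA EPR. The genes were found by symbol in a table of 55376 genes, and all 42 were listed. Of these, 41 were among the 15952 genes that passed the filter on low counts (a CPM value of at least 1, where CPM are counts scaled to the library size, in at least 4 libraries). Fa2h had been singled out because of its difference in the same comparison that is described below, and the other members were named with results of these data known. The group differences of the members are therefore given as a description, and nothing is read from how many of them passed a threshold.

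Control mice (EPR fl/fl) carried both EPR alleles flanked by loxP sites and no Cre. EPR cKO mice carried the same floxed alleles and the CDX2P-NLS Cre transgene, in which a human CDX2 promoter directs Cre to epithelial cells of the colon, cecum and distal ileum. Founders from targeted embryonic stem cells had been bred to C57BL/6 mice. All animals were 12 weeks old, with 6 in each group and 1 library of total RNA per mouse, made from whole frozen tissue of the proximal colon. Both groups carried the floxed allele and the transgene was present only in EPR cKO, so that deletion of EPR and presence of the transgene cannot be told apart.

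Sphingolipids are built on ceramide, which is made when serine and palmitoyl-CoA are condensed by serine palmitoyltransferase and the resulting base is reduced, coupled to a fatty acid by ceramide synthases and desaturated or hydroxylated. Ceramide is then turned into sphingomyelin, glucosylceramide or galactosylceramide, and is released again by sphingomyelinases and glycosidases. Ceramidases cut it to sphingosine, which is phosphorylated to the signalling lipid sphingosine 1-phosphate and finally split by a lyase. Epithelial cells of the gut carry complex sphingolipids with hydroxylated chains in their apical membrane.

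The libraries held 13093904 to 33211041 counts. EPR, listed under the symbol Smim31, had 297 to 1474 counts in the EPR fl/fl libraries and 0 to 10 in the EPR cKO libraries. Muc2, the gel-forming mucin of goblet cells, ranged from 4083 to 14600 CPM in EPR fl/fl, compared with 1073 to 2028 CPM in EPR cKO. EPR cKO 1 stood apart from the other libraries of its group. The sum of 11 smooth muscle markers was 10018 CPM in it, compared with 3386 to 5787 CPM in EPR fl/fl, while the lowest EPR cKO library had 1211 CPM, and results that move without it are given with and without it. In whole tissue, fewer cells of a type and less RNA per cell cannot be told apart.

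Fa2h, Acer1 and Ugcg rose in EPR cKO, Asah2 and Ormdl3 fell, and most other sphingolipid genes had log2 fold changes near 0. An adjusted p under 0.05 (edgeR quasi-likelihood test, Benjamini-Hochberg over all genes tested) is referred to below as a call. Of the 41 members tested, 3 were called higher in EPR cKO (Fa2h, Acer1 and Ugcg), beside 0.884% of all genes tested, and 2 were called lower (Asah2 and Ormdl3), beside 1.57%. In both directions together 2.46% of all genes were called. The other 36 were not called and had log2 fold changes (EPR cKO over EPR fl/fl) between -0.47 and 0.39. The 6 EPR cKO libraries lay above the 6 EPR fl/fl libraries for 4 members, Fa2h, Acer1, Ugcg and Gal3st1, and below them for 1, Asah2. Over all genes tested these shares were 1.00% and 1.47%, or 2.47% together. The median log2 fold change was 0.09 over the members and 0.02 over all genes tested. A value above 0 was found for 26 members and a value below 0 for 15, while 52.8% of all genes tested had a value above 0. The standard error (SE) of a member's log2 fold change ranged from 0.06 to 0.30 with a median of 0.10. Within 0.2 of 0 lay 28 of the 41 members, beside 9030 of the 15952 genes tested. The summed level of all members was 3060 ± 119 CPM (SD, n = 6) in EPR fl/fl against 3298 ± 190 CPM in EPR cKO.

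**Figure D1:**
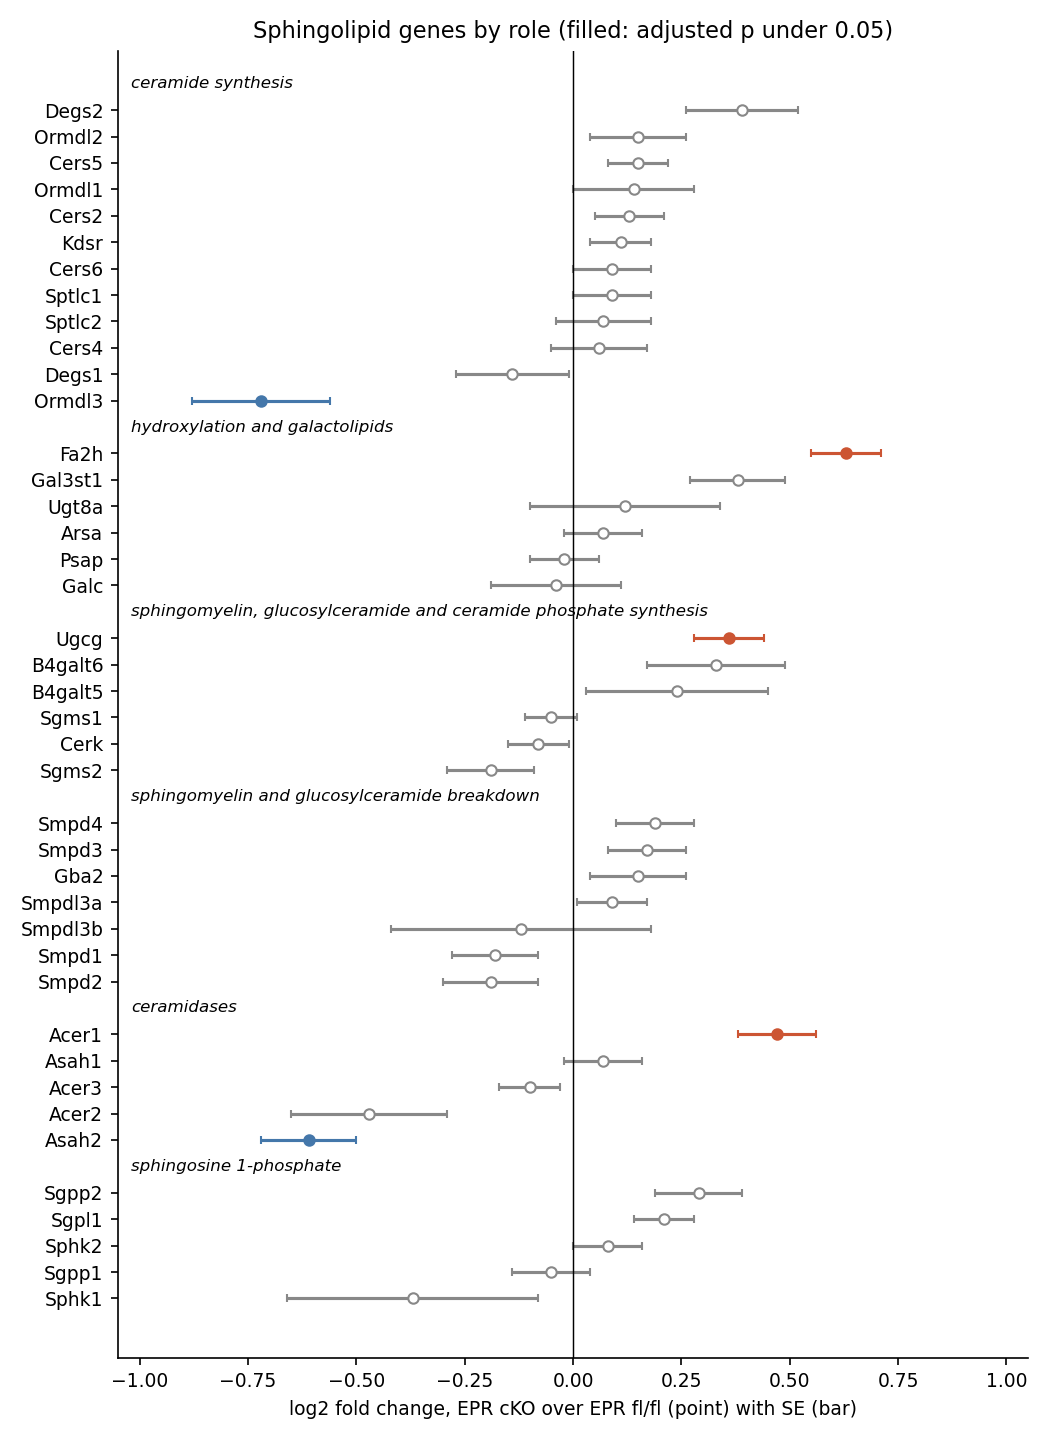
Log2 fold change of EPR cKO over EPR fl/fl with its SE for the 41 members tested, grouped by their step in the pathway. Fa2h, Acer1 and Ugcg lie to the right of 0 and Asah2 and Ormdl3 to the left among the called members, and most other members lie near 0.

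Fa2h encodes fatty acid 2-hydroxylase, the enzyme that adds a hydroxyl group to the alpha carbon of the fatty acids used for ceramide. It is best known from myelin and skin, where hydroxylated galactolipids and ceramides are abundant. The gene lies on the minus strand of chromosome 8 at chr8:111345141-111393824 (mm10), and none of its annotated exon bases overlap another gene. Fa2h was at 97.1, 89.6, 79.9, 82.5, 89.8 and 97.9 CPM in EPR fl/fl 1 to 6 and at 149, 147, 126, 119, 146 and 146 CPM in EPR cKO 1 to 6. The lowest EPR cKO library, at 119.4 CPM, was above the highest EPR fl/fl library, at 97.88 CPM. The means were 89.5 ± 7.34 and 139 ± 12.7 CPM, a log2 fold change of 0.63 (SE 0.08), or 1.55-fold. Fa2h kept its call under all 7 alternative settings and with each of the 12 libraries left out, with log2 fold changes from 0.59 to 0.67. EPR cKO 1, the library rich in smooth muscle RNA, had the highest Fa2h level of all.

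The enzymes that use or remove hydroxylated galactolipids were less clearly separated. Gal3st1 encodes the sulfotransferase that turns galactosylceramide into sulfatide. It was at 23.3, 31.9, 31.5, 32.6, 32.0 and 28.8 CPM in EPR fl/fl 1 to 6 and at 32.6, 44.7, 44.3, 32.8, 41.9 and 38.2 CPM in EPR cKO 1 to 6. The groups did not overlap, but only just, since the highest EPR fl/fl library had 32.57 CPM and the lowest EPR cKO library 32.65 CPM. Its log2 fold change was 0.38 (SE 0.11), which was not called. Ugt8a, which encodes the transferase that makes galactosylceramide, varied widely within both groups, from 7.31 to 18.0 CPM in EPR fl/fl against 8.97 to 18.2 CPM in EPR cKO, with a log2 fold change of 0.12 (SE 0.22). Galc and Arsa, whose lysosomal products remove the galactose and the sulfate, had values of -0.04 (SE 0.15) and 0.07 (SE 0.09). Of the Arsa exon bases, 19.8% lie opposite C230037L18Rik. Psap, the precursor of the saposins that present these lipids to the lysosomal enzymes, was at 673, 598, 664, 699.9, 736 and 823 CPM in EPR fl/fl 1 to 6 and at 658, 694, 679, 677, 710.2 and 726 CPM in EPR cKO 1 to 6. The EPR cKO libraries of Psap all lay inside the EPR fl/fl range.

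Among the 12 tested genes of ceramide synthesis, Ormdl3 was the only one called, and it fell. Ormdl3 encodes an endoplasmic reticulum protein that, with its relatives Ormdl1 and Ormdl2, restrains serine palmitoyltransferase. It lies on the minus strand at chr11:98581256-98587368 (mm10). Ormdl3 was at 42, 28.0, 29.9, 26.2, 32.1 and 25.0 CPM in EPR fl/fl 1 to 6 and at 28.0, 17.1, 17.9, 16.3, 16.2 and 15.8 CPM in EPR cKO 1 to 6. The groups overlapped only through EPR cKO 1, while the other EPR cKO libraries were all below every EPR fl/fl library. The log2 fold change was -0.72 (SE 0.16), and -0.89 (SE 0.12) without EPR cKO 1. The call was lost, with log2 fold changes no nearer to 0 than -0.62, when any of EPR fl/fl 1, 3, 4 and 5 or EPR cKO 2 to 6 was left out. Ormdl1 and Ormdl2 were not called, at 0.14 (SE 0.14) and 0.15 (SE 0.11). Ormdl2 shares 66.7% of its exon bases with Dnajc14 on the opposite strand, and Ormdl1 shares 21.5% with Gm28778 on its own strand, so that their counts are uncertain.

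The other enzymes of ceramide synthesis were not called. Degs2, which encodes a desaturase that also hydroxylates the ceramide base and is typical of gut and skin, had the largest value among them. It was at 97.9, 123, 125, 121, 122 and 130.0 CPM in EPR fl/fl 1 to 6 and at 103, 160.0, 152, 157, 177 and 193 CPM in EPR cKO 1 to 6. EPR cKO 2 to 6 were above every EPR fl/fl library and EPR cKO 1 was not. The log2 fold change of 0.39 (SE 0.13) was not called, it was 0.47 (SE 0.09) and called without EPR cKO 1, and it was 0.13 (SE 0.10) in a fit that included a score of epithelium minus smooth muscle markers. Part of its exon sequence, 13%, lies opposite the gene Evl. Degs1, its widely expressed relative, had -0.14 (SE 0.13). Sptlc1 and Sptlc2, the subunits of serine palmitoyltransferase, had 0.09 (SE 0.09) and 0.07 (SE 0.11). Sptlc2 was at 246, 230.4, 239, 228, 255 and 293 CPM in EPR fl/fl 1 to 6 and at 201, 257, 255, 246, 280.1 and 326 CPM in EPR cKO 1 to 6, and the groups overlapped. Kdsr, the reductase that follows, had 0.11 (SE 0.07), and the ceramide synthases Cers2, Cers4, Cers5 and Cers6, which differ in the length of the fatty acid they attach, had 0.13, 0.06, 0.15 and 0.09. Sptlc3, the alternative catalytic subunit, was not tested. It had 1 count in EPR fl/fl 2 and 0 counts in the other 11 libraries, which allows levels of up to 0.0903 to 0.229 CPM (3 counts per library, counting error only).

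Ugcg opens the glycosphingolipid branch, since its product adds glucose to ceramide. The gene lies on the plus strand at chr4:59189257-59222833 (mm10). It was at 125, 140.3, 106, 119.9, 109 and 122 CPM in EPR fl/fl 1 to 6 and at 153, 157, 155, 148, 174 and 141 CPM in EPR cKO 1 to 6. The groups were separated by less than 1 CPM, between EPR fl/fl 2 at 140.3 CPM and EPR cKO 6 at 141.0 CPM. Ugcg rose by a log2 fold change of 0.36 (SE 0.08). The call was lost when any of EPR fl/fl 1, 3, 4, 5 and 6 or EPR cKO 2 to 6 was left out, while the log2 fold change stayed between 0.33 and 0.41. It was also lost under 4 of the 7 alternative settings, total counts (0.33), no filter (0.34), the replicate block (0.37) and the tissue score described below (0.33). B4galt5 and B4galt6, which encode the lactosylceramide synthases of the next step, had 0.24 (SE 0.21) and 0.33 (SE 0.16). B4galt5 was at 85.8 and 97.6 CPM in EPR fl/fl 1 and 6 and at 42.7 to 52.9 CPM in the other libraries of that group, so that its spread between controls was larger than its difference between groups. The sphingomyelin synthases Sgms1 and Sgms2 had -0.05 (SE 0.06) and -0.19 (SE 0.10), and the ceramide kinase Cerk had -0.08 (SE 0.07).

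The enzymes that release ceramide from sphingomyelin and glucosylceramide were grouped with the related Smpdl3a and Smpdl3b. This group had the narrowest range of log2 fold changes among the 6 groups of members. All 7 were tested, and their log2 fold changes lay between -0.19 and 0.19. By edgeR 0 were called, beside 2.46% of all genes tested. An unadjusted p under 0.05 was found for 0, beside 11.1% of all genes with a positive value and 7.12% with a negative one. With only 7 genes, nothing is read from these counts. DESeq2 also called 0 of the 7, beside 2.76% of all genes higher and 2.97% lower. The acid sphingomyelinase Smpd1 and the neutral enzymes Smpd2, Smpd3 and Smpd4 had -0.18, -0.19, 0.17 and 0.19. Without EPR cKO 1, Smpd2 was called lower, at -0.28 (SE 0.09), in a fit that called 21.8% of all genes. Smpdl3a, which encodes a phosphodiesterase related to acid sphingomyelinase, was at 143, 109, 131, 139.9, 139.6 and 144 CPM in EPR fl/fl 1 to 6 and at 124, 144, 144, 139, 159 and 150.1 CPM in EPR cKO 1 to 6. The groups of Smpdl3a overlapped, and its log2 fold change was 0.09 (SE 0.08). Its relative Smpdl3b was low and variable, at 2.05 to 8.71 CPM in EPR fl/fl, with a log2 fold change of -0.12 (SE 0.30). Gba2, the glucosylceramidase that acts outside the lysosome, had 0.15 (SE 0.11).

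The ceramidases moved in both directions. Acer1, which encodes an alkaline ceramidase of the endoplasmic reticulum known mostly from the epidermis, lies on the minus strand at chr17:56953490-56982126 (mm10). It was at 37.1, 44.8, 34.0, 38.5, 43.2 and 39.3 CPM in EPR fl/fl 1 to 6 and at 47.8, 49.6, 51.4, 56.4, 64.2 and 59.0 CPM in EPR cKO 1 to 6. The groups did not overlap, and the log2 fold change was 0.47 (SE 0.09). The call was lost without EPR fl/fl 4 and without EPR cKO 6, and the log2 fold change stayed between 0.42 and 0.51 with each library left out. It was 0.34 (SE 0.08) and not called with the epithelium minus smooth muscle score in the fit. Of the Acer1 exon bases, 14.1% lie opposite Gm49887, which itself had no more than 0.745 CPM in any library.

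Asah2 encodes the neutral ceramidase of the intestinal brush border, where it takes part in the digestion of dietary sphingolipids, and it lies on the minus strand at chr19:31982597-32108211 (mm10). It was at 28.3, 30.8, 31.6, 30.7, 26.7 and 24.5 CPM in EPR fl/fl 1 to 6 and at 20.7, 20.1, 14.9, 22.5, 18.7 and 16.0 CPM in EPR cKO 1 to 6. The groups did not overlap. Asah2 fell by 0.61 on the log2 scale (SE 0.11), and it kept its call under all 7 alternative settings and with each of the 12 libraries left out. The Golgi ceramidase Acer2 was at 5.05, 4.84, 6.66, 4.78, 4.59 and 4.14 CPM in EPR fl/fl 1 to 6 and at 4.84, 3.94, 2.86, 3.98, 2.59 and 3.57 CPM in EPR cKO 1 to 6. Its groups overlapped, and its log2 fold change of -0.47 (SE 0.18) was not called, but was called at -0.59 (SE 0.17) without EPR cKO 1. The lysosomal ceramidase Asah1, the most abundant of the family per length, was at 136, 119, 124, 118, 143 and 145 CPM in EPR fl/fl 1 to 6 and at 117, 127, 143, 130.3, 142 and 164 CPM in EPR cKO 1 to 6. The groups of Asah1 overlapped, with a log2 fold change of 0.07 (SE 0.09), and Acer3 had -0.10 (SE 0.07).

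Of the 5 genes that make and remove sphingosine 1-phosphate, 0 were called by edgeR, beside 2.46% of all genes tested. Among the 5, 2 had a positive log2 fold change with an unadjusted p under 0.05, beside 11.1% of all genes (7.12% with a negative value). These were Sgpl1, the lyase that ends the pathway, at 0.21 (SE 0.07), and Sgpp2, a phosphatase that returns the lipid to sphingosine, at 0.29 (SE 0.10). Sgpl1 was called by DESeq2, and Sgpp2 was called, at 0.33 (SE 0.09), without EPR cKO 1. Both overlapped between groups, with Sgpl1 at 123 to 146 CPM in EPR fl/fl against 136 to 166 CPM in EPR cKO. The kinase Sphk1 was low, at 1.34 to 2.80 CPM in EPR fl/fl against 0.811 to 2.26 CPM in EPR cKO, and its log2 fold change of -0.37 had an SE of 0.29. Sphk2, the other kinase, had 0.08 (SE 0.08), with 21.9% of its exon bases opposite Dbp and Rpl18, and Sgpp1 had -0.05 (SE 0.09).

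**Figure D2:**
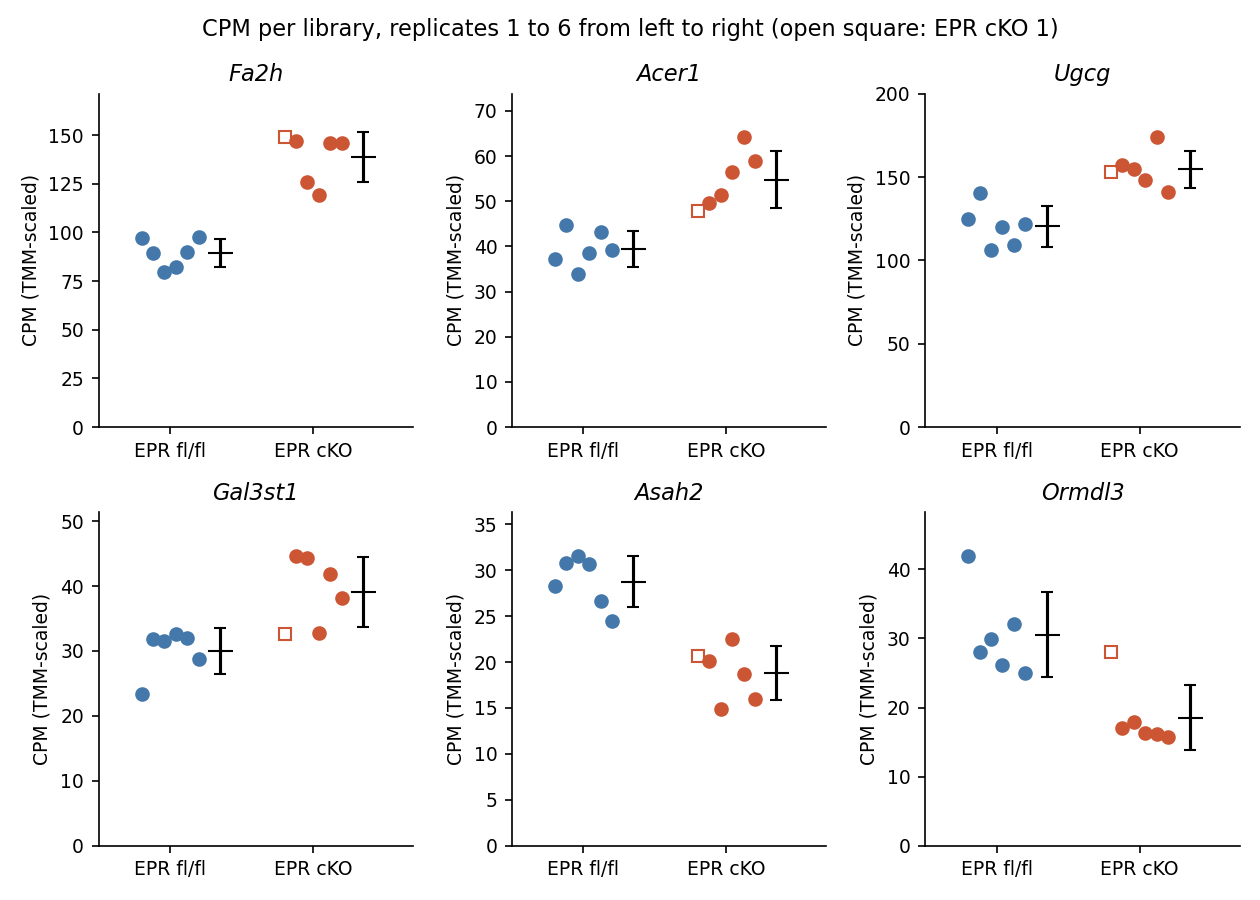
TMM-scaled CPM of 6 members in each of the 12 libraries, 1 point per library, with the mean and SD of each group (n = 6) beside the points and EPR cKO 1 as an open square. All EPR cKO points lie above the EPR fl/fl points for Fa2h, Acer1, Ugcg and Gal3st1 and below them for Asah2, and for Ormdl3 only EPR cKO 1, at 28.0 CPM, reaches the EPR fl/fl range.

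The promoters of 4 called members are shown to let their base composition be compared (RefSeq, GRCm38.p6, 250 bases before to 50 after the start). Promoters of 37 of the 42 members were matched. In each, matches on either strand to the GC box GGGCGG and the CACCC element CACCC are in capitals, and a match on the other strand appears as its reverse complement. The windows are chr17:56982077-56982376, minus strand, for Acer1, chr4:59189300-59189599, plus strand, for Ugcg, chr19:32103091-32103390, minus strand, for Asah2, and chr11:98587196-98587495, minus strand, for Ormdl3. The whole Asah2 and Ugcg windows lie inside the spans by which these genes were counted, and the Ormdl3 start lies inside its span as well.
Acer1: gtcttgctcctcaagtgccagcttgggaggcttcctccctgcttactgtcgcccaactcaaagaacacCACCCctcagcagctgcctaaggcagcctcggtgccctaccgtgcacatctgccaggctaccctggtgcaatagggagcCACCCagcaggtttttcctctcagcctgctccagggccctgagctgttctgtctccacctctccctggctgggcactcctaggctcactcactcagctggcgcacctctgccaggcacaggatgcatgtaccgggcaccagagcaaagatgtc
Ugcg: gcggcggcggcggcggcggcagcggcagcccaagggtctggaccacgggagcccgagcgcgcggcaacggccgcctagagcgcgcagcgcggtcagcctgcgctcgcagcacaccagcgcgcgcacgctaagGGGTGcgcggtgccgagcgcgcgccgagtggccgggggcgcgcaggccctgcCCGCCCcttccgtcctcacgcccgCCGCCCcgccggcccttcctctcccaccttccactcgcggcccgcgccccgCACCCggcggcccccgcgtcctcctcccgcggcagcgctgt
Asah2: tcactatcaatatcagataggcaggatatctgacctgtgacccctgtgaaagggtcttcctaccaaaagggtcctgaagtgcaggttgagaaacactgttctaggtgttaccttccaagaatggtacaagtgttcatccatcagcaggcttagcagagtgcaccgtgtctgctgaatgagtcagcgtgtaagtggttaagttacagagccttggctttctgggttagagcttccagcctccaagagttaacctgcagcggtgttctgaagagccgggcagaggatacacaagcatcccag
Ormdl3: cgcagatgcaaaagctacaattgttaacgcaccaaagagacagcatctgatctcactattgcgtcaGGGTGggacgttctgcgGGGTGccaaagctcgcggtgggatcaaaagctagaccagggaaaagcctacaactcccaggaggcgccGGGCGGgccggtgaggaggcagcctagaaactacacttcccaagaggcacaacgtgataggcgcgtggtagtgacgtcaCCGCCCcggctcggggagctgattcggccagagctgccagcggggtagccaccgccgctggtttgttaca
The Ugcg window was rich in G and C, at 81.3%, with 53 CpG dinucleotides, against a median of 52.7% over the 32851 promoters of the table. The Asah2 window had 49.3% and 4 CpG, Acer1 had 61.0% and 5 CpG, and Ormdl3 had 59.7% and 22 CpG. A GC box was found in the Ugcg and Ormdl3 windows, 2 in each, and in 35.7% of all promoters. The CACCC element was found in Acer1, Ugcg and Ormdl3, 2 in each, and in 57.5% of all promoters. The CCAAT box (CCAAT, in 37.4% of all promoters) and the TATA box (TATAAA, in 13.6%) were not found in the 4 windows. These matches are letters in a window and say nothing of binding.

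Fa2h and Asah2 were called both without EPR cKO 1 and with a tissue score in the fit. Acer1, Ugcg and Ormdl3 were called without EPR cKO 1 but not with that score. The log2 fold change of Ugcg was 0.33 (SE 0.09) with the score, against 0.36 (SE 0.08) in the main fit. Without EPR cKO 1, the members called higher were Degs2, Fa2h, Gal3st1, Ugcg, Acer1 and Sgpp2 (6 of 41, beside 7.44% of all genes tested in that fit), and those called lower were Ormdl3, Smpd2, Asah2 and Acer2 (4 of 41, beside 14.4%). With the score of epithelium minus smooth muscle markers as a covariate, Fa2h at 0.66 (SE 0.09) was called higher, beside 0.514% of all genes tested, and Asah2 at -0.57 (SE 0.13) was called lower, beside 1.50%. That score was 1.53 to 2.22 in EPR fl/fl, 0.49 in EPR cKO 1 and 2.48 to 4.01 in EPR cKO 2 to 6, so that it moved with the groups. DESeq2 called 5 members higher and 2 lower, beside 2.76% and 2.97% of all genes tested. The shares of all genes called higher and lower were 0.420% and 1.12% with the replicate number as a block, 1.10% and 2.05% with limma-voom, 0.244% and 1.55% with total counts, 0.840% and 1.60% with DESeq2 size factors, and 0.147% and 0.662% without a filter.

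**Figure D3:**
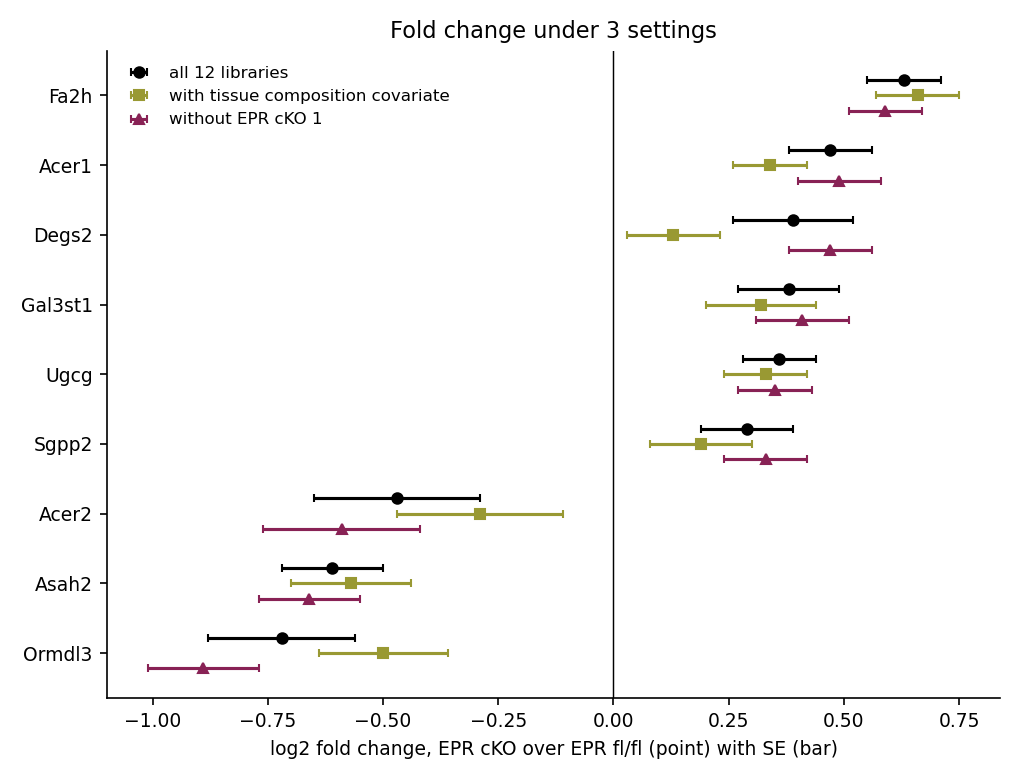
Log2 fold change with SE of 9 members in the fit of all 12 libraries, in the fit with the tissue score as a covariate and in the fit without EPR cKO 1. Fa2h lies between 0.59 and 0.66 in the 3 fits and Asah2 between -0.66 and -0.57, while Degs2 moves from 0.39 to 0.13 with the covariate.

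The cell types of the tissue were followed with lists of markers. All 12 epithelial markers had a log2 fold change above 0 and 0 were called by edgeR (4 had an unadjusted p under 0.05), and their summed level was 10002 to 14684 CPM in EPR fl/fl against 12023 to 18156 CPM in EPR cKO. Of 12 colonocyte markers 0 were called (6 had an unadjusted p under 0.05, 4 higher and 2 lower), and their sum was 12305 to 18927 and 16854 to 27394 CPM. Of 12 goblet cell markers 7 were called lower, the median was -0.80 on the log2 scale, and the sums were 13581 to 28779 CPM in EPR fl/fl against 6305 to 8710 CPM in EPR cKO. Of 11 smooth muscle markers, 10 had a value below 0, 0 were called by edgeR and 0 had an unadjusted p under 0.05 with all 12 libraries. Adipocyte markers were all 8 below 0 (median -1.36, 0 called by edgeR, 6 with an unadjusted p under 0.05), with sums of 472 to 1506 CPM in EPR fl/fl against 72.0 to 1052 CPM in EPR cKO. Markers of enteric neurons and glia (11 tested, median -0.22), macrophages (10 tested, median -0.36), T cells (9 tested, median -0.10) and B and plasma cells (6 of 8 tested, median 0.03) also had 0 genes called by edgeR, and 1 of them, a T cell marker, had an unadjusted p under 0.05. Without EPR cKO 1 more markers were called lower, beside 14.4% of all genes tested in that fit. These were all 11 smooth muscle markers (median -1.27), all 8 adipocyte markers (median -2.04), 11 of 12 goblet cell, 6 of 11 neuronal and glial, 5 of 8 endothelial, 3 of 10 macrophage, 1 of 9 T cell and 1 of 8 Schwann cell markers, while 3 of 12 epithelial markers were called higher. The summed smooth muscle level of EPR cKO 2 to 6 was 1211 to 2983 CPM, below every EPR fl/fl library. The part of these cell types in the differences of Fa2h, Acer1, Ugcg, Asah2 and Ormdl3 was not tested. The covariate above moved with the groups and used only the epithelial and smooth muscle lists, so that it held no goblet cell or colonocyte list.

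Cell types in which these enzymes are best known were looked at in the same way. Of 10 markers of myelinating Schwann cells, 8 passed the filter and 0 were called (1 had an unadjusted p under 0.05, higher), with sums of 397 to 809 CPM in EPR fl/fl against 679 to 1007 CPM in EPR cKO. Pmp22 held the largest part of these sums, at 371 ± 128 CPM in EPR fl/fl against 552 ± 64.1 CPM in EPR cKO, and was the marker with that p. Mal had means of 90.5 and 113 CPM and Mbp of 78.0 and 73.7 CPM. Mag, which encodes a myelin-associated glycoprotein, reached no more than 0.44 CPM in any library. Of the markers tested, 5 had a log2 fold change above 0 and 3 below 0. Of 7 markers of squamous epithelium, 2 passed the filter and 0 were called (1 had an unadjusted p under 0.05, higher). That marker was Dsg3, at 3.35 ± 1.14 CPM in EPR fl/fl against 5.45 ± 1.48 CPM in EPR cKO, and the other was Krt14, at 0.9 ± 0.819 and 0.823 ± 0.642 CPM. The sums were 2.44 to 5.95 and 4.24 to 9.80 CPM. Krt5, Krt13, Krt4 and Trp63 stayed at or below 0.44 CPM, with Sprr3 at 0 in all libraries. The part of these cell types in the Fa2h difference was not tested.

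Levels within the control libraries make no use of the difference between groups by which Fa2h was singled out, and were compared by a test. The genes themselves were chosen with results of these data known. Per kilobase of exon, the highest members in EPR fl/fl were Psap (255 ± 27.7 CPM per kilobase, SD, n = 6), Smpdl3a (68.5 ± 6.85), Degs2 (56.1 ± 5.28), Asah1 (47.2 ± 4.31) and Sptlc2 (37.1 ± 3.55). Fa2h was next, at 35.9 ± 2.95, which is within the spread of Sptlc2 above it and of Cers6 below it, at 33.5 ± 2.40. The lowest were Acer3 (2.18 ± 0.131), Acer2 (1.19 ± 0.205) and Sphk1 (0.486 ± 0.133), with Sptlc3 near 0.

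**Figure D4:**
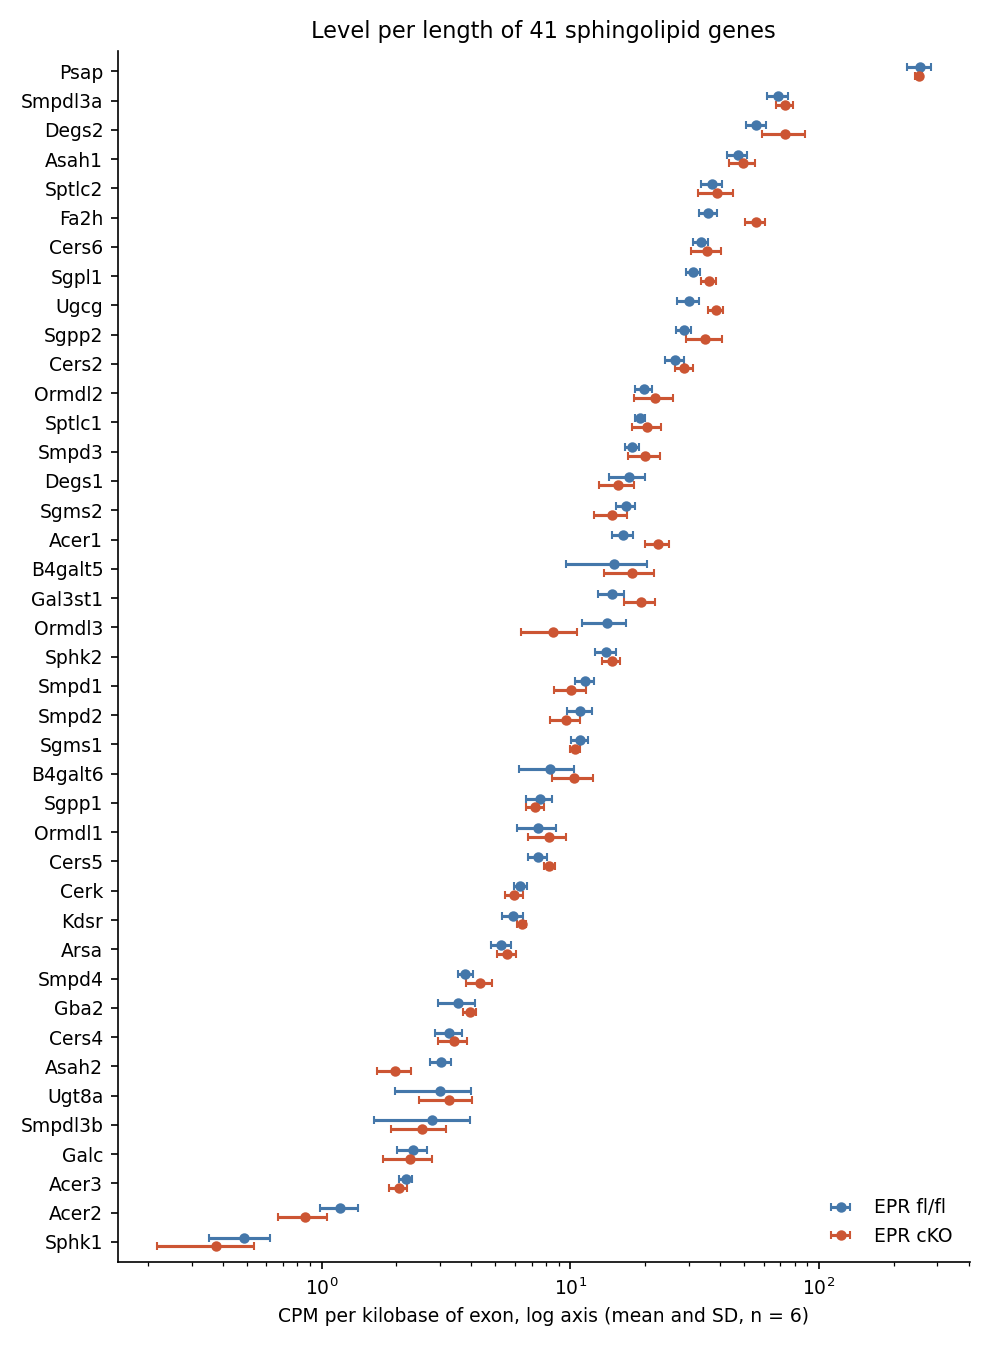
Mean level with SD (n = 6) of the 41 members tested in CPM per kilobase of exon, on a log axis, ordered by the level in EPR fl/fl. Psap stands above all others at 255 CPM per kilobase, Fa2h is at 35.9 in EPR fl/fl against 55.7 in EPR cKO, and Sphk1 is lowest at 0.486.

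Related enzymes were compared within each EPR fl/fl library by their log2 ratio per kilobase, with a two-sided exact sign-flip permutation test over 6 libraries and Benjamini-Hochberg adjustment over the 19 pairs. The smallest p that 6 libraries allow is 0.03125, which gave an adjusted p of 0.0349, and 17 pairs reached it. Degs2 was above Degs1 (log2 ratio of Degs1 to Degs2 -1.72 ± 0.34, SD), as was Sgpp2 above Sgpp1 (-1.93 ± 0.21 for Sgpp1 to Sgpp2) and Sphk2 above Sphk1 (-4.86 ± 0.39 for Sphk1 to Sphk2, where reads of the genes opposite Sphk2 may be counted with it). The lysosomal ceramidase Asah1 was above the brush border enzyme Asah2 by 3.96 ± 0.27, and Acer1 was above Acer3 by 2.89 ± 0.19. Ugcg, which makes glucosylceramide, was above Ugt8a, which makes galactosylceramide, by 3.39 ± 0.43. Among the ceramide synthases, Cers2 was above Cers4 by 3.02 ± 0.20 and above Cers5 by 1.83 ± 0.21, and below Cers6 (-0.35 ± 0.18). The sizes of several ratios depended on the annotated exon length. Without division by length, Acer1 was above Acer3 by 0.66, Cers2 above Cers4 by 0.92 and Asah1 above Asah2 by 2.18, and Cers2 to Cers6 was -2.02.

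Further pairs differed as well. Sgms2 was above Sgms1 (-0.62 ± 0.18 for Sgms1 to Sgms2), Smpd3 was above Smpd1 (-0.63 ± 0.22 for Smpd1 to Smpd3), Acer3 was above Acer2 (-0.88 ± 0.16 for Acer2 to Acer3), and Smpdl3a was above Smpdl3b by 4.74 ± 0.59. Ormdl3 was above Ormdl1 (-0.90 ± 0.27 for Ormdl1 to Ormdl3) and below Ormdl2 by 0.52 ± 0.27 in EPR fl/fl. The corresponding ratios in EPR cKO, where Ormdl3 was lower, were -0.04 and 1.38. Overlap with Gm28778 and Dnajc14 leaves the counts of Ormdl1 and Ormdl2 uncertain. Sptlc2 was above Sptlc3 in all 6 libraries, an outcome that was fixed in advance, since Sptlc3 had 1 count in EPR fl/fl 2 and 0 in the others. The pairs that did not reach the threshold were B4galt5 and B4galt6 (0.82 ± 0.71, exact p = 0.0625, adjusted p = 0.066) and Smpd1 and Smpd2 (0.06 ± 0.22, exact p = 0.53125, adjusted p = 0.531). Gba2 was above Galc by 0.60 ± 0.29. Without division by length, Gba2 and Galc (adjusted p = 0.0699) and Ormdl2 and Ormdl3 (adjusted p = 0.297) no longer reached it in the same exact permutation test, and Smpd1 and Smpd2 did (adjusted p = 0.0371).

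**Figure D5:**
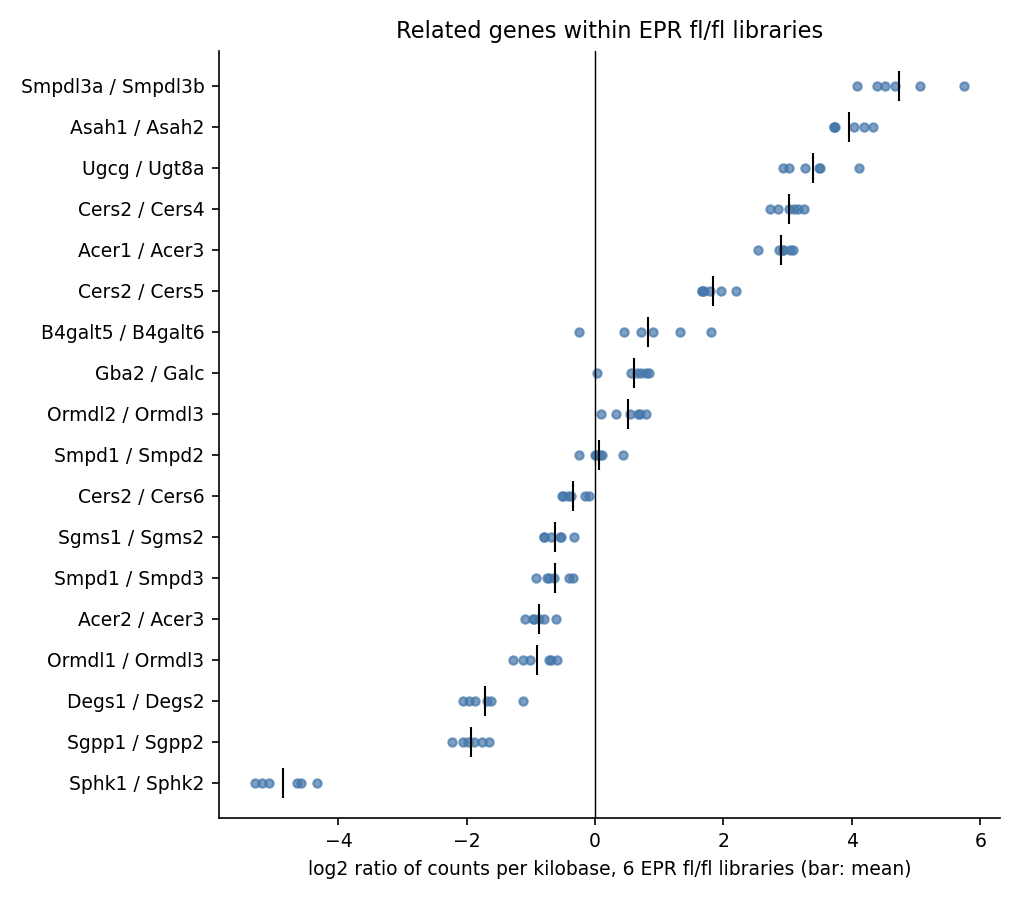
Log2 ratio of counts per kilobase for 18 pairs of related genes in the 6 EPR fl/fl libraries, 1 point per library, with the mean as a bar. All points of 16 pairs lie on 1 side of 0, and those of B4galt5 with B4galt6 and of Smpd1 with Smpd2 lie on both sides.

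Other genes of the pathway were read from a list of 58 that are not members, such as sphingosine 1-phosphate receptors, lysosomal glycosidases, lipid transfer proteins and fatty acid elongases. Of the 50 that passed the filter, 1 was called higher and 1 lower, beside 0.884% and 1.57% of all genes tested. The median log2 fold change of the 50 was -0.08. Plpp2, which encodes a lipid phosphate phosphatase, was at 125 to 174 CPM in EPR fl/fl against 179 to 258 CPM in EPR cKO, without overlap. It rose by 0.51 on the log2 scale (SE 0.10, adjusted p = 0.0214 by edgeR's quasi-likelihood test). Spns2, which encodes the transporter that exports sphingosine 1-phosphate from cells, was at 7.18 to 11.8 CPM in EPR fl/fl against 2.21 to 6.83 CPM in EPR cKO, without overlap. It fell by 1.21 on the log2 scale (SE 0.28, adjusted p = 0.0401 by the same test), and by 1.43 (SE 0.26) without EPR cKO 1. Both calls were lost with the tissue score in the fit, at 0.35 (SE 0.09) for Plpp2 and -0.78 (SE 0.20) for Spns2. The call of Plpp2 was lost without EPR fl/fl 1 or 4 or EPR cKO 2, 3 or 6, with values from 0.46 to 0.52, and that of Spns2 without any of EPR fl/fl 1 to 6 or EPR cKO 3 to 6, with values no nearer to 0 than -1.08. Spns2 is known from endothelium, and the 8 endothelial markers all had a log2 fold change below 0 (median -0.48), with 0 called and 2 at an unadjusted p under 0.05, and sums of 55.2 to 73.5 CPM in EPR fl/fl against 28.4 to 85.8 CPM in EPR cKO. Without EPR cKO 1, 5 of the 8 were called lower (median -0.78). Their part in the Spns2 difference was not tested.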

How the data were processed

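The authors isolated total RNA from whole frozen tissue, depleted ribosomal RNA, prepared stranded libraries, trimmed reads with Trimmomatic, aligned them with STAR 2.5.3a to mm10 and used featureCounts with Ensembl gene models to count them. The deposited values were raw counts per gene, not normalized, beside the exon positions and total exon length (bases) of each gene. The strand setting of the counting and the treatment of reads with several alignments are not given in the sources used here, so that overlapping and near-identical genes are uncertain. The 12 count columns were matched to samples by name.

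Genes with at least 1 CPM in at least 4 libraries were kept (15952 of 36694 with any count), as in the study. Counts were scaled by TMM and compared with edgeR 4.0.16 (quasi-likelihood F test, limma 3.58.1, R 4.3.3), with Benjamini-Hochberg adjustment over all genes tested. CPM is TMM-scaled. SE is that of the log2 fold change, taken as the size of that change divided by the square root of the edgeR F statistic. DESeq2 1.42.0, limma-voom, other scalings, no filter, a replicate block, a tissue score and leaving out each library were the alternatives. On simulated counts for 15711 genes of this comparison, 75.3% of the genes with a simulated log2 change of 1 and 97.2% of those with 2 were recovered, with 4.97% false calls. Each gene was simulated separately, without a difference shared by many genes such as that of EPR cKO 1. The members had log2 fold changes between -0.72 and 0.63, smaller than those simulated, so that these shares do not apply to them. The median SE was 0.145 over all genes. Replicates within a group differed by far more than sampling noise (chi-square per gene at least 24.7 over 30 pairs). Each library is 1 mouse.

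The members and lists were chosen with earlier results of these data known. Values in each library were given for Fa2h, members called or not overlapping, the 3 largest rises and falls, and the 5 highest per length; from the other pathway list, genes called were named. Ratios of related genes used a pseudocount of 0.5 counts. Promoters came from RefSeq, GRCm38.p6. Marker lists covered 12 cell types. Each was described by the number of genes called, with its median log2 fold change, its summed CPM or both.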

Additional observations from a re-analysis of the deposited data

Results flagged for a closer look

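Levels were examined for a library far from the other 5 of its group (Dixon's ratio of the gap to the nearest library over the range of the group, above its critical value for 6 libraries). Of 90 sets of 6 libraries, 7 showed one, where chance would give 4.5. Among the members these were Ormdl3 in EPR cKO 1 (28.0 CPM, others 15.8 to 17.9), Degs2 in EPR fl/fl 1 (97.9 CPM, others 121 to 130.0), B4galt6 in EPR fl/fl 2 (70.4 CPM, others 37.7 to 49.8), Acer2 in EPR fl/fl 3 (6.66 CPM, others 4.14 to 5.05) and Sgpl1 in EPR fl/fl 2 (146 CPM, others 123 to 128). Outside the members they were EPR in EPR cKO 2 (0.424 CPM, others 0 to 0.134) and Muc2 in EPR cKO 5 (1073 CPM, others 1735 to 2028). What set these libraries apart was not tested.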

How the results depend on the processing

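Called members kept their direction under every alternative and with each library left out. Of the members that were not called, 10 with log2 fold changes within 0.15 of 0 changed sign under at least 1 setting, among them Sptlc1 (0.09 to -0.07) and Ormdl2 (0.15 to -0.06) with the tissue score. Over all genes, 141 were called higher and 251 lower. The number higher was 39 with total counts, 54 with no filter, 440 with the DESeq2 Wald test, 67 with the replicate block, 82 with the tissue score and 28 to 1178 with single libraries left out. The number lower was 473 with DESeq2 and 145 to 2273 with single libraries left out, the highest values being those without EPR cKO 1. Members called higher (3) numbered 1 with total counts, 5 with DESeq2 (Sgpl1 and Gal3st1 added), 1 with the tissue score and 1 to 6 with single libraries left out. Members called lower (2) numbered 1 with the tissue score and 1 to 4 with single libraries left out. Other pathway genes called higher (1) numbered 0 with total counts, 3 with DESeq2, 0 with the tissue score and 0 to 7 with single libraries left out. Those called lower (1) numbered 2 with DESeq2, 0 with the replicate block, 0 with the tissue score and 0 to 10 with single libraries left out. Cell type markers called higher (0) numbered 1 with DESeq2 (Cldn7), 1 with the replicate block (Rbp2), 1 with the tissue score (Vip) and 0 to 3 with single libraries left out, and those called lower (7) numbered 12 with DESeq2 and 3 to 46 with single libraries left out. Pairs of related genes called (17) numbered 0 with any EPR fl/fl library left out, since the smallest p of 5 libraries is 0.0625. The cause of the other changes was not tested.

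The replicate numbers were shared between groups, but libraries of the same number correlated in their deviations from the group means by over 0.1 in only 2 of 6 pairs, and 2 of 6 EPR fl/fl libraries correlated best with their own number. With the replicate block the members called were Fa2h, Acer1, Asah2 and Ormdl3, and Ugcg was not. The call of Acer1 was also lost with total counts and with the tissue score, that of Ugcg with total counts, no filter and the tissue score, and that of Ormdl3 with the tissue score. Sphk1, Smpdl3b and Acer2 had the lowest mean CPM in EPR fl/fl among the members tested, with SEs of 0.29, 0.30 and 0.18, and Sptlc3 could not be measured at this depth.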

Other observations

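Of the 50 other pathway genes tested, 8 had a positive value with an unadjusted p under 0.05 by edgeR, beside 11.1% of all genes tested. A negative value with such a p was found for 4, beside 7.12%. Among those that supply fatty acids or bases to the sphingolipid enzymes, Elovl1 came closest to the threshold. Elovl1, an elongase of very long chain fatty acids used by ceramide synthases, was at 46.6 ± 6.33 CPM in EPR fl/fl against 64.7 ± 9.87 CPM in EPR cKO (log2 fold change 0.48, SE 0.12, adjusted p = 0.0557 by edgeR). Elovl6 had 0.35 (SE 0.11, adjusted p = 0.109) and Sptssb, a small subunit of serine palmitoyltransferase, had 0.55 (SE 0.18, adjusted p = 0.134). In each of the 3 the groups overlapped. DESeq2 called Elovl1 higher. Without EPR cKO 1 all 3 were called higher, together with Plpp2, Cyb5b, Elovl7 and Tecr, in the fit that called 7.44% of all genes higher. The same fit called 10 of the 50 lower, beside 14.4% of all genes, with Elovl4 and Hacd4 among them. In the main fit Elovl4 had -0.90 (SE 0.58) at a mean of 1.01 CPM in EPR fl/fl. Hacd4 had -0.41 (SE 0.25), Hacd2 -0.18 (SE 0.11) and Elovl5 -0.04 (SE 0.06), so that values went in both directions.

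Among genes of glycolipid breakdown in the lysosome, Neu1, a sialidase, had -0.38 (SE 0.12, adjusted p = 0.112) and Gm2a, the activator protein of ganglioside breakdown, had -0.46 (SE 0.15, adjusted p = 0.138), and both were called lower without EPR cKO 1, in the fit that called 14.4% of all genes lower. Elovl1, Elovl6, Sptssb, Neu1 and Gm2a, and those named with them, were chosen for these paragraphs after their values were seen.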
